A study of Mus musculus with 4 samples.

Results

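The genes described here are 47 components of the Wnt pathway, from ligands and receptors to antagonists and feedback targets, in the embryonic mouse cortex. They were chosen by gene name in the deposited tables: 46 of the 47 names were found, and Gpr124 was found under Adgra2, for which RefSeq gives Gpr124 as a synonym. The 47 genes stand among 19968 genes listed in both tables, and 45 of them passed the filter on low counts, all but Kremen2 and Lgr5. By role they were 9 ligands, 10 receptors, 2 co-receptors for Wnt7 ligands, 2 Dickkopf receptors, 6 secreted antagonists, 7 genes of the R-spondin axis, 3 cytoplasmic transducers, 4 TCF/LEF factors and 4 feedback targets.

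RNA sequencing was done on cerebral cortex of C57BL/6 embryos at embryonic day 15. The labels put 2 samples in the group with the genotype Prdm16cKO, called cKO here, and 2 in the control group with the genotype Prdm16fl/fl, called floxed. No treatment is given, and the sources used here do not give the Cre driver, the deleted exon or whether samples share a litter. The title of 1 sample in each group holds the word Blood, and the series' design text speaks of triplicates. The tables hold 2 libraries labelled KO, called cKO 1 and cKO 2, and 1 control library, which stands in both tables with identical counts. A level of floxed is therefore that of 1 library, and p-values measure only the spread between the cKO libraries, which may be technical.

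Wnt ligands are secreted lipid-modified proteins that bind Frizzled receptors together with the co-receptors LRP5 and LRP6. In the canonical branch this stops a complex of Axin and APC from marking beta-catenin for destruction, so that beta-catenin reaches TCF/LEF factors on DNA. Kremen proteins bind Dickkopf antagonists and, with them, remove LRP6 from the cell surface. In the developing forebrain Wnt ligands of the cortical hem pattern the dorsomedial cortex, and Wnt7a and Wnt7b made by neural cells act on endothelial cells through Gpr124 and Reck.

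Library totals were 19518174 reads for cKO 1, 18581791 for cKO 2 and 17841685 for floxed, and levels are given in CPM, a count scaled to these totals. Prdm16 had 34.6 CPM in cKO 1 and 24.1 CPM in cKO 2, against 30.2 CPM in floxed, so the total count was not lower in the library labelled cKO 1. A count over the whole gene checks the labels only in part where the deleted exon is not known, so cKO stands below for the libraries labelled KO. The cortical projection neuron gene Neurod6 was abundant in the 3 libraries, with 978 and 872 CPM in cKO 1 and cKO 2, against 902 CPM in floxed. Non-neural marker lists other than the erythroid one set cKO 2 apart. The 10 erythroid markers summed to 1595 and 1290 CPM in cKO 1 and cKO 2, against 1752 CPM in floxed, with 7 and 6 of 10 above floxed. The 13 microglia and macrophage markers summed to 187 and 64.2 CPM, against 140 CPM. The 15 markers of meninges and fibroblasts summed to 938 CPM in cKO 1 and 117 CPM in cKO 2, against 587 CPM in floxed, and 14 of 15 were below floxed in cKO 2. In that library Lum, Aldh1a2 and Slc6a13 had at most 3 counts. The 13 endothelial markers summed to 437 and 214 CPM in cKO 1 and cKO 2, against 363 CPM in floxed, with 13 of 13 below floxed in cKO 2. The 11 pericyte and smooth muscle markers summed to 350 and 160 CPM, against 287 CPM, and the 10 choroid plexus markers to 1138 and 344 CPM, against 1147 CPM. Markers of radial glia (14 of 15 listed genes in the tables) summed to 2632 and 2621 CPM in cKO 1 and cKO 2, against 1991 CPM in floxed, with 11 and 10 of the 14 above floxed. In bulk tissue, fewer cells of a type and less RNA per cell cannot be told apart.

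No gene of the pathway passed the test across all genes. The edgeR quasi-likelihood test with Benjamini-Hochberg adjustment called 0 of 45 tested genes, and 0 of 16725 genes overall (0%). At an unadjusted p under 0.05 the pathway held 1 gene that was higher, Kremen1, beside 0.646% of all genes tested, and 0 genes that were lower, beside 0.652%. The edgeR adjusted p was 0.99997 for every pathway gene tested, and DESeq2 and limma-voom also called 0 pathway genes. Fitted log2 folds below come from the same edgeR fit. Both cKO libraries lay above floxed for 10 of 45 tested genes (22.2%), beside 27.7% of all genes tested. Both lay below floxed for 17 genes (37.8%), beside 31.8%, and floxed lay between the cKO libraries for 18 (40%), beside 40.5%. These shares are near the background. Among the 33 pathway genes of at least 5 CPM on average, 10 had both cKO libraries above floxed, beside 29% of such genes, 11 below, beside 30.4%, and 12 between, beside 40.6%.

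Each cKO library was also set against floxed by the ratio of its CPM, with an exact 95% interval that covers counting error only. These comparisons share the floxed library. In cKO 1, 15 of 45 tested genes (33.3%) were above floxed beyond counting error, beside 17.8% of all genes tested, and 4 (8.89%) were below, beside 16%. In cKO 2, 7 genes (15.6%) were above beyond counting error, beside 16.1%, and 19 (42.2%) were below, beside 24.5%. Among the 33 genes of at least 5 CPM, 12 were above and 3 below in cKO 1, beside 21.7% and 20.2% of such genes, and 7 were above and 12 below in cKO 2, beside 20.5% and 26.1%. The authors' deposited tables marked 2 pathway genes as significantly higher in cKO 1 (Kremen1 and Lgr4), beside 1.31% of all genes, and 0 as lower, beside 0.942%. For cKO 2 they marked 1 as higher (Kremen1), beside 1.04%, and 6 as lower (Wnt2b, Fzd5, Fzd10, Adgra2, Dkk2 and Tcf7), beside 5.8%. The median log2 ratio of the 45 genes was 0.09 in cKO 1 and -0.13 in cKO 2, where the medians of all genes tested were 0.01 and -0.04. The larger part of the pathway genes outside counting error was thus above floxed in cKO 1 and below it in cKO 2. All genes tested had the same order, with 17.8% above and 16% below in cKO 1, and 16.1% and 24.5% in cKO 2. The meningeal and vascular markers had this order too, and their part in it was not tested.

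**Figure D1:**
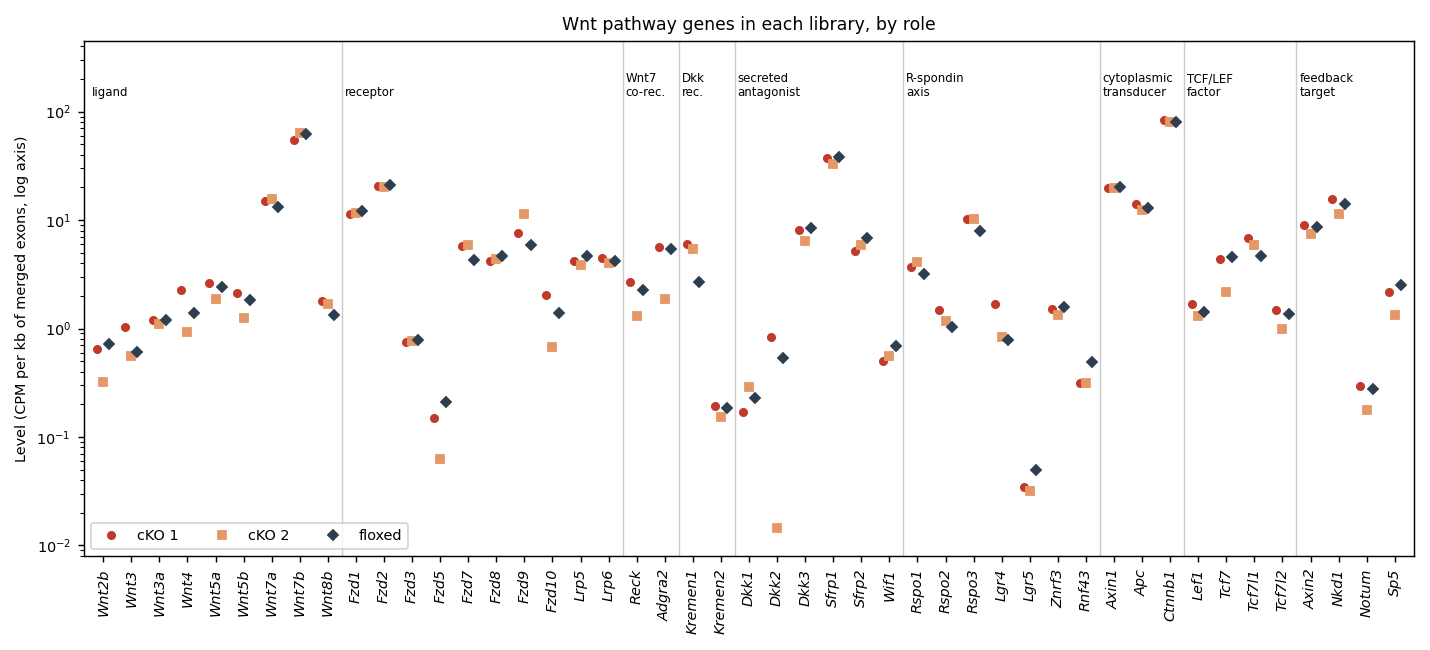
Level of each pathway gene in CPM per kilobase of merged exons (logarithmic axis), grouped by role, with a circle for cKO 1, a square for cKO 2 and a diamond for floxed. Ctnnb1 and Wnt7b have the highest levels, Kremen1 lies higher in both cKO libraries than in floxed, and Dkk2 in cKO 2 rests on 1 count.

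Kremen1, a transmembrane receptor for Dickkopf antagonists, had the smallest unadjusted p in the pathway. It had 46.2 CPM in cKO 1 and 42.1 CPM in cKO 2 (902 and 782 counts), against 20.9 CPM in floxed (372 counts). Both cKO libraries lay above floxed, and their spread was small beside the distance to it (44.1 ± 2.92 CPM, SD, n = 2). The ratio to floxed was 2.22 in cKO 1 (interval 1.96 to 2.51) and 2.02 in cKO 2 (1.78 to 2.29). The fitted log2 fold was 1.10 (SE 0.15, edgeR unadjusted p = 0.00107). By unadjusted p Kremen1 stood at place 4 of 16725 genes. In the authors' deposited tables, each of 1 library against 1 library, it was marked significant in both, with log2 folds of 1.15 (adjusted p = 1.82e-39) and 1.01 (adjusted p = 4.67e-29). The list was drawn up with this result known, so the difference of Kremen1 is a description.

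Kremen1 (ENSMUSG00000020393) lies on the minus strand of chromosome 11, at 5191552 to 5261558 in GRCm38. Its next listed neighbour on one side is another gene of the pathway, Znrf3, 14.8 kb away on the same strand with no listed gene between them. Znrf3 encodes a ubiquitin ligase that removes Frizzled receptors from the membrane. It had 12 and 10.6 CPM in cKO 1 and cKO 2, against 12.3 CPM in floxed, and both ratio intervals held 1 (0.809 to 1.18 and 0.706 to 1.05). The neighbours therefore differed: Kremen1 was about 2 times its floxed level in both cKO libraries and Znrf3 was within counting error of it.

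Kremen2, the paralog with the same Dickkopf-binding role, was near the limit of detection. It had 8 and 6 counts in cKO 1 and cKO 2 (0.41 and 0.323 CPM), against 7 counts in floxed (0.392 CPM), so a difference was not detectable at this depth. Per kilobase of merged exons, the level of Kremen1 was 31.0 and 35.8 times that of Kremen2 in cKO 1 and cKO 2, and 14.6 times in floxed (49.3, 57.0 and 23.2 times with longest transcripts). Set against its co-receptor partner per kilobase, Kremen1 had 1.33 and 1.36 times the level of Lrp6 in cKO 1 and cKO 2, against 0.639 times in floxed. With the longest transcript of each gene as its length, the ratio to Lrp6 was 1.45 and 1.48 in cKO 1 and cKO 2, against 0.696 in floxed. On both lengths Kremen1 was above Lrp6 in the cKO libraries and below it in floxed.

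Among the ligands, Wnt7b and Wnt7a, which signal from neural cells to vessels, held most of the RNA. Wnt7b had 270 CPM in cKO 1 and 309 CPM in cKO 2, against 306 CPM in floxed. The floxed level lay between the cKO libraries, and the fitted log2 fold was -0.06 (SE 0.16). Wnt7b was below floxed beyond counting error in cKO 1 (ratio 0.882, interval 0.849 to 0.916) and within it in cKO 2 (1.01, 0.974 to 1.05). Wnt7a had 47.4 and 49.2 CPM in cKO 1 and cKO 2, against 42.3 CPM in floxed. Both cKO libraries were higher, with ratios of 1.12 (interval 1.02 to 1.24) and 1.16 (1.06 to 1.28). Per kilobase, Wnt7b made up 67.4% and 73.1% of the summed level of the 9 ligands in cKO 1 and cKO 2, against 73.3% in floxed. Wnt7a made up 18.3% and 18%, against 15.6%. The ratio of Wnt7b to Wnt7a per kilobase was 3.69 and 4.07 in cKO 1 and cKO 2, against 4.69 in floxed.

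The other ligands each stayed under 4% of the summed ligand level in every library. Wnt8b, a ligand of the cortical hem and hippocampal primordium, had 6.20 and 5.87 CPM in cKO 1 and cKO 2, against 4.65 CPM in floxed, and both intervals of the ratio held 1. Wnt3a, the hem ligand needed for hippocampal growth, had 3.28 and 3.01 CPM, against 3.31 CPM. Neither hem ligand differed from floxed beyond counting error. The hem and Cajal-Retzius markers, with Ttr left out after its values were seen, summed to 309 and 344 CPM in cKO 1 and cKO 2, against 288 CPM in floxed. Reln held most of this sum, with 186 and 192 CPM in cKO 1 and cKO 2, against 178 CPM in floxed. In cKO 2 Lmx1a (4.25 CPM, against 5.32 CPM in floxed) and Lmx1b (1 count, against 13 counts) were below floxed, and 7 markers were above it.

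Wnt2b, Wnt4, Wnt5a and Wnt5b were below floxed beyond counting error in cKO 2. Wnt2b, which is also expressed in the hem, had 2.72 and 1.35 CPM in cKO 1 and cKO 2, against 3.03 CPM in floxed. Its fitted log2 fold had the largest size among the ligands, -0.56 (SE 0.56), and the authors' deposited table marked it significant for cKO 2 only. Wnt4 had 9.58 CPM in cKO 1 and 3.93 CPM in cKO 2, against 5.77 CPM in floxed. The cKO libraries lay on opposite sides of floxed, with ratios of 1.66 (interval 1.30 to 2.13) and 0.681 (0.497 to 0.927). Wnt5a, a ligand of the noncanonical branch, had 20.6 and 14.6 CPM, against 19.1 CPM, and its relative Wnt5b had 5.64 and 3.28 CPM, against 4.82 CPM. Wnt3 was higher in cKO 1 beyond counting error, with 3.18 and 1.72 CPM in cKO 1 and cKO 2, against 1.85 CPM in floxed. Wnt3, Wnt4, Wnt5a and Wnt5b had the order of the meningeal marker sum (1.60 and 0.199 times floxed in cKO 1 and cKO 2). Of these ligands Wnt4 alone had it beyond counting error in both cKO libraries. Of all genes tested, 40.5% had floxed between the cKO libraries, in either order. The meningeal marker sum was mostly Zic1 in cKO 2, and the part of meningeal cells was not tested.

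**Figure D2:**
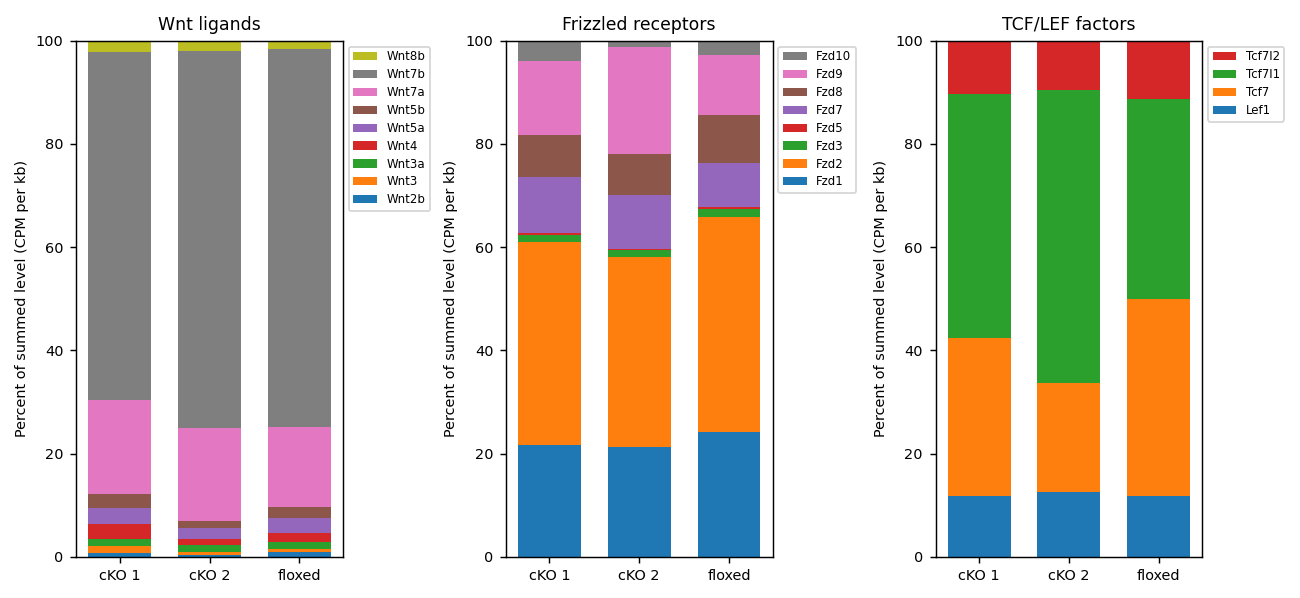
Share of each listed gene in the summed level of the listed genes of its family (CPM per kilobase of merged exons, as a percent), as stacked bars for cKO 1, cKO 2 and floxed. Wnt7b holds 67.4% and 73.1% of the ligand level in cKO 1 and cKO 2 and 73.3% in floxed, Fzd9 and Tcf7l1 take a larger share of their families in the cKO libraries, and Tcf7 a smaller one.

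Of the 8 Frizzled receptors in the list, Fzd7 and Fzd9 were above floxed beyond counting error in each cKO library, and Fzd10 in cKO 1 only. Of all genes tested, 17.8% were above floxed beyond counting error in cKO 1 and 16.1% in cKO 2, and 8 genes are too few to set apart from these shares. Fzd9 had 17.3 CPM in cKO 1 and 26.2 CPM in cKO 2, against 13.5 CPM in floxed. Both cKO libraries were higher, with ratios of 1.28 (interval 1.08 to 1.52) and 1.94 (1.66 to 2.28), and they differed from each other as well. Fzd7 had 25.9 and 26.5 CPM in cKO 1 and cKO 2, against 19.4 CPM in floxed. The cKO libraries were close to each other and above floxed, with ratios of 1.33 (interval 1.16 to 1.53) and 1.37 (1.19 to 1.57). Fzd7 is a receptor of stem and progenitor cells in several tissues, and the radial glia marker sum stood at 1.32 times floxed in both cKO libraries. Vim, Fabp7 and Nes held most of that sum. The median log2 ratio of the 14 markers was 0.18 in cKO 1 and 0.28 in cKO 2, with 3 and 4 of them below floxed. The part of radial glia RNA in the values of Fzd7 and Fzd9 was not tested.

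The most abundant Frizzled genes, Fzd2 and Fzd1, did not differ from floxed beyond counting error. Fzd2 led the family per kilobase, with 74.9 and 74.4 CPM in cKO 1 and cKO 2, against 76.8 CPM in floxed (fitted log2 fold -0.02, SE 0.13). Fzd1 had 47.4 and 49.2 CPM, against 50.8 CPM, and Fzd8 had 24.8 and 26.4 CPM, against 27.9 CPM. Fzd3, which acts in axon guidance and planar cell polarity, had 9.53 and 9.90 CPM, against 10.03 CPM. For these 4 genes both cKO libraries lay just below floxed within counting error, and under TMM scaling floxed lay between the cKO libraries for Fzd3. The summed level of the 8 listed Frizzled genes was 52.0 and 55.2 CPM per kilobase in cKO 1 and cKO 2, against 50.3 CPM per kilobase in floxed. Within that sum Fzd9 took 14.5% and 20.7% in cKO 1 and cKO 2, against 11.7% in floxed, while Fzd2 took 39.3% and 36.8%, against 41.7%.

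Fzd10 and Fzd5 were low and were below floxed in cKO 2. Fzd10 had 6.56 CPM in cKO 1 and 2.21 CPM in cKO 2, against 4.54 CPM in floxed. The cKO libraries lay on opposite sides of floxed, each beyond counting error. Fzd5 had 20 and 8 counts in cKO 1 and cKO 2 (1.02 and 0.431 CPM), against 26 counts in floxed (1.46 CPM). Its fitted log2 fold, -0.98 (SE 0.74), had the largest size among receptors and rests on few counts. The authors' deposited tables marked both genes significant for cKO 2 only. Outside the list, Fzd4 (7.53 and 3.07 CPM in cKO 1 and cKO 2, against 6.89 CPM in floxed) and Fzd6 (12.9 and 4.41 CPM, against 8.97 CPM) were also below floxed beyond counting error in cKO 2; they were named after their values were seen.

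The LRP co-receptors, which Frizzled proteins need for canonical signalling, were measured for both Lrp6 and Lrp5. Lrp6 had 61.4 and 54.7 CPM in cKO 1 and cKO 2, against 57.8 CPM in floxed, and floxed lay between the cKO libraries. Lrp5 had 40.8 and 37.4 CPM, against 45.6 CPM. Lrp5 was below floxed in both, with ratios of 0.895 (interval 0.811 to 0.988) and 0.821 (0.741 to 0.909). Per kilobase, Lrp6 made up 51.8% and 51.0% of the pair in cKO 1 and cKO 2, against 47.5% in floxed. With longest transcripts its share was 58.8% and 58.1%, against 54.6%, so which of the pair was higher in floxed depends on the length used.

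The co-receptors through which Wnt7 ligands reach brain endothelium differed between the cKO libraries. Adgra2 (Gpr124), an adhesion G protein-coupled receptor, had 32.9 CPM in cKO 1 and 10.8 CPM in cKO 2, against 31.4 CPM in floxed. Its level in cKO 1 was within counting error of floxed, and in cKO 2 the ratio was 0.345 (interval 0.292 to 0.406). The fitted log2 fold was -0.52 (SE 0.61), with a standard error above its size. Reck, the membrane-anchored partner of Gpr124, had 12.9 and 6.30 CPM, against 10.9 CPM, with ratios of 1.18 (interval 0.972 to 1.43) and 0.576 (0.454 to 0.728). Beside them, the endothelial marker sum in cKO 2 was 0.588 times floxed and the pericyte and smooth muscle sum 0.558 times. In cKO 1 these sums were 1.20 and 1.22 times floxed. The part of these cells in the values of Adgra2 and Reck was not tested.

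**Figure D3:**
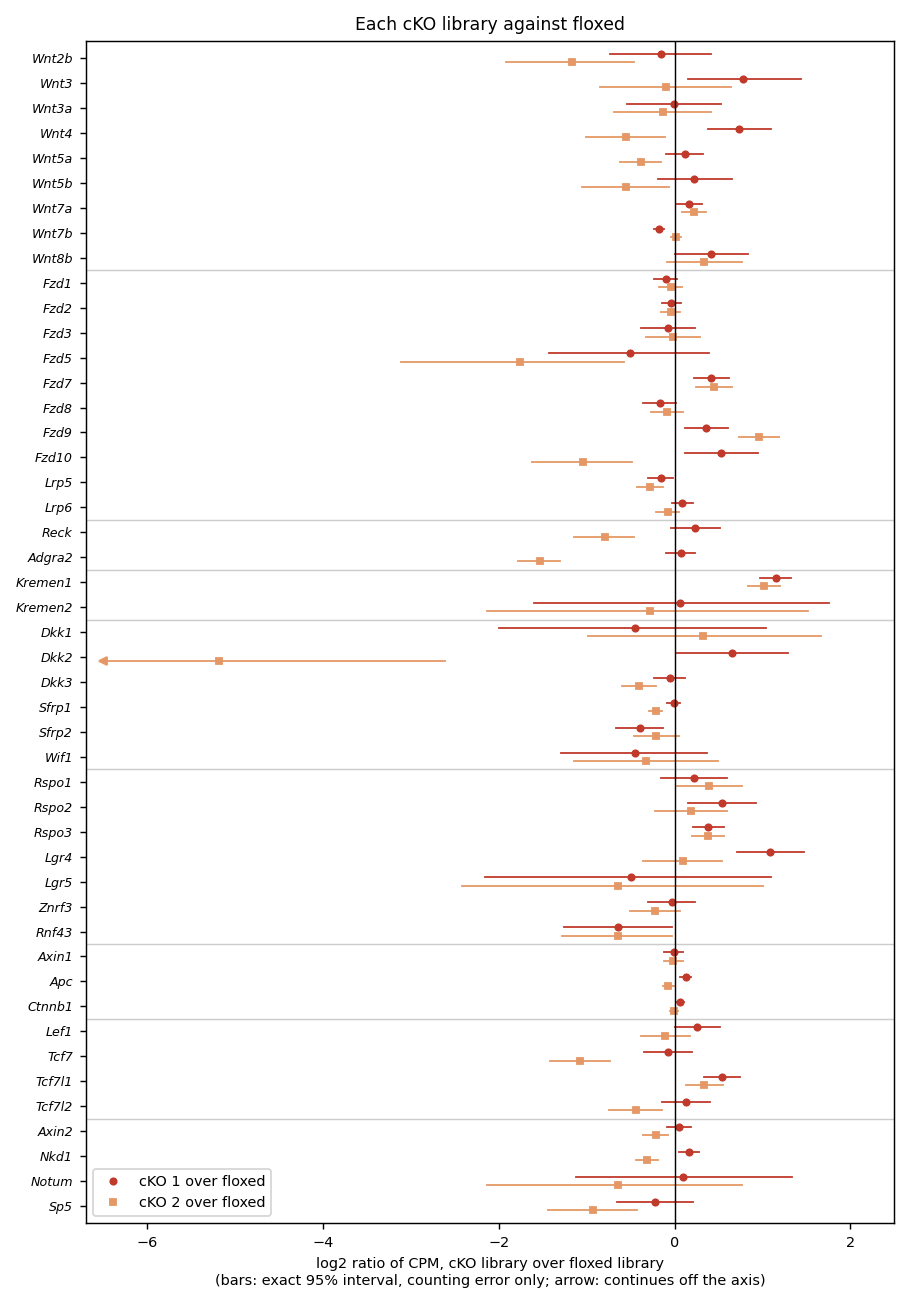
The log2 ratio of CPM of each cKO library over floxed for the 47 genes, with a circle for cKO 1, a square for cKO 2 and bars for the exact 95% interval (counting error only); the bar of Dkk2 in cKO 2 runs off the axis. Kremen1, Fzd7, Fzd9, Rspo3 and Tcf7l1 lie right of 0 with both bars, and the bars of Adgra2, Tcf7 and Fzd10 lie wholly left of 0 in cKO 2 and not in cKO 1.

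Of the 6 secreted antagonists in the list, 0 had both cKO libraries above floxed, beside 27.7% of all genes tested. Both lay below floxed for 4, beside 31.8%, and 6 genes are too few to set apart from these shares. Of 12 other secreted or surface genes of the wider pathway, 3 had both cKO libraries above floxed and 4 had both below. Sfrp1, a secreted Frizzled-related protein of cortical progenitors, was the most abundant, with 165 and 143 CPM in cKO 1 and cKO 2, against 166 CPM in floxed. Its fitted log2 fold was -0.09 (SE 0.13). It held 71.8% and 71.3% of the summed antagonist level per kilobase, against 69.4% in floxed. Sfrp2 had 11.2 and 12.8 CPM, against 14.8 CPM, and its ratio was below 1 beyond counting error in cKO 1 (0.758, interval 0.631 to 0.911) and not in cKO 2 (0.866, 0.723 to 1.04). Dkk3, a divergent Dickkopf relative, had 27.2 and 21.3 CPM, against 28.3 CPM. For Sfrp1, Sfrp2, Dkk3 and Wif1 both cKO libraries lay below floxed, and no one of them did so beyond counting error in both. Sfrp1 (ratio 0.860, interval 0.816 to 0.907) and Dkk3 (0.753, 0.658 to 0.86) did so in cKO 2 only.

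The Dickkopf proteins that bind Kremen were scarce. Dkk1 had 8 and 13 counts in cKO 1 and cKO 2 (0.41 and 0.70 CPM), against 10 counts in floxed (0.56 CPM), so a difference was not detectable at this depth. Dkk2 had 60 counts in cKO 1 and 1 count in cKO 2 (3.07 and 0.0538 CPM), against 35 counts in floxed (1.96 CPM). The cKO libraries lay on opposite sides of floxed, with ratios of 1.57 (interval 1.02 to 2.45) and 0.0274 (0.000675 to 0.163). The meningeal marker sum, at 1.60 and 0.199 times floxed and in cKO 2 mostly Zic1, had the same order. The part of meningeal cells was not tested. Wif1, which binds Wnt ligands directly, had 24 and 25 counts (1.23 and 1.35 CPM), against 30 counts (1.68 CPM), and its fitted log2 fold was -0.37 (SE 0.52).

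R-spondins, the secreted amplifiers that shield Wnt receptors from Znrf3 and Rnf43, were above floxed in both cKO libraries for the 3 genes in the list. Of all genes tested 27.7% were above floxed in both, and 3 genes are too few to set apart from this share. Rspo4, outside the list, had 2 counts in cKO 1 and 1 count in cKO 2, against 1 count in floxed, too few to compare. Rspo3 had 31.8 CPM in cKO 1 and 31.6 CPM in cKO 2, against 24.3 CPM in floxed. The cKO libraries were nearly equal (31.7 ± 0.124 CPM, SD, n = 2) and higher, with ratios of 1.31 (interval 1.15 to 1.48) and 1.30 (1.15 to 1.47). The fitted log2 fold was 0.40 (SE 0.16). Rspo1 had 7.12 and 8.02 CPM, against 6.11 CPM, and Rspo2 had 7.63 and 5.97 CPM, against 5.27 CPM. Each of these was beyond counting error in 1 cKO library only. The summed level of the 3 listed R-spondins was 15.4 and 15.5 CPM per kilobase in cKO 1 and cKO 2, against 12.1 CPM per kilobase in floxed, and Rspo3 held 66.5% and 65.8% of it, against 65.3%. The makeup of the R-spondin level was thus alike in the 3 libraries, while its size, mostly that of Rspo3, was larger in the cKO libraries.

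Of the R-spondin receptors and the ligases they act on, Lgr4 had both cKO libraries above floxed, and Lgr5, Znrf3 and Rnf43 had both below it. Lgr4 had 9.89 CPM in cKO 1 and 4.95 CPM in cKO 2, against 4.65 CPM in floxed. It was above floxed beyond counting error in cKO 1 alone, with a ratio of 2.13 (interval 1.64 to 2.78), and its fitted log2 fold was 0.68 (SE 0.50). The authors' deposited table marked it significant for cKO 1 only. Lgr5 had 7 and 6 counts, against 9 counts in floxed, and was not tested. Rnf43, the paralog of Znrf3, had 40 and 38 counts in cKO 1 and cKO 2 (2.05 CPM in each), against 57 counts in floxed (3.19 CPM). Each cKO library was below floxed, with ratios of 0.641 (interval 0.417 to 0.978) and 0.640 (0.413 to 0.982).

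The cytoplasmic transducers were abundant and close to floxed. Ctnnb1, the gene of beta-catenin, had 434 and 413 CPM in cKO 1 and cKO 2, against 417 CPM in floxed (fitted log2 fold 0.04, SE 0.12). Apc, a scaffold of the destruction complex, had 228 and 198 CPM, against 208 CPM (fitted log2 fold 0.05, SE 0.13). Axin1, the other scaffold, had 76.1 and 76.0 CPM, against 76.7 CPM. At these counts the ratio intervals were narrow, from 0.922 to 1.07 in cKO 1 and 0.919 to 1.07 in cKO 2 for Axin1, and 1.01 to 1.07 in cKO 1 for Ctnnb1.

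Among the TCF/LEF factors, which carry beta-catenin to its target genes, Tcf7l1 was above floxed and Tcf7 below it in both cKO libraries. Tcf7l1, mostly a repressor in the absence of Wnt, had 26.5 and 23.2 CPM in cKO 1 and cKO 2, against 18.3 CPM in floxed. Both cKO libraries were higher, with ratios of 1.45 (interval 1.26 to 1.67) and 1.27 (1.09 to 1.47), and the fitted log2 fold was 0.46 (SE 0.19). Tcf7 had 11.5 and 5.76 CPM, against 12.1 CPM. It was near floxed in cKO 1 and low in cKO 2, where the ratio was 0.476 (interval 0.374 to 0.602). Its fitted log2 fold was -0.48 (SE 0.45). Lef1 had 14.8 and 11.5 CPM, against 12.4 CPM, and Tcf7l2 had 13.1 and 8.77 CPM, against 11.9 CPM, with floxed between the cKO libraries for both. Per kilobase, Tcf7l1 made up 47.3% and 56.8% of the summed TCF/LEF level in cKO 1 and cKO 2, against 38.8% in floxed, and Tcf7 30.6% and 21.1%, against 38.3%.

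The feedback targets, genes that beta-catenin and TCF/LEF factors switch on, differed between the cKO libraries. Their median log2 ratio was 0.07 in cKO 1 and -0.48 in cKO 2, where the medians of all genes tested were 0.01 and -0.04. The median in cKO 2 lies between Nkd1 (-0.31) and Notum (-0.64), which had few counts. A list of 4 genes is too short to set apart from the medians of all genes. Axin2, the usual readout of canonical signalling, had 49.4 and 41.2 CPM in cKO 1 and cKO 2, against 47.7 CPM in floxed. Floxed lay between the cKO libraries, with ratios of 1.04 (interval 0.943 to 1.14) and 0.863 (0.782 to 0.953). Nkd1, an inhibitor that binds Dishevelled, had 71.3 and 51.3 CPM, against 63.6 CPM, and its fitted log2 fold was -0.04 (SE 0.21). It lay beyond counting error on opposite sides of floxed. Notum, which removes the lipid from Wnt ligands, had 14 and 8 counts, against 12 counts. Sp5, a zinc-finger factor gene, had 4.56 and 2.80 CPM in cKO 1 and cKO 2, against 5.32 CPM in floxed. Its level was below floxed in both cKO libraries, in cKO 1 within counting error and in cKO 2 with a ratio of 0.526 (interval 0.367 to 0.745). The fitted log2 fold of Sp5 was -0.52 (SE 0.42). None of the 4 feedback targets was above floxed beyond counting error in both cKO libraries. In the whole list Wnt7a, Fzd7, Fzd9, Kremen1, Rspo3 and Tcf7l1 were, and Lrp5 and Rnf43 were below it in both. The share of all genes that did so was not counted, so no contrast between roles is drawn.

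Promoter sequence is shown for Sp5, which holds the motif searched, and for Fzd9 and Tcf7l1, which do not. Sp5 was below floxed in both cKO libraries, in cKO 1 within counting error, and Fzd9 and Tcf7l1 were above it in both. RefSeq (GRCm38.p6) gave windows from 250 bases before to 50 bases after a gene's start for 29 of the 47 genes. They were searched on both strands for the TCF/LEF motif CTTTGAT or CTTTGAA, which cannot both match at one place. Of the 29 genes 3 held it (10.3%), Sp5, Wnt5b and Dkk1, beside 9.88% of all genes with a window. For Wnt5b and Dkk1 floxed lay between the cKO libraries, and a link between the motif and the direction was not tested. The window of Sp5 lies on the plus strand at chr2:70474673-70474972 and holds CTTTGAT, in capitals below, with its first base 104 bases before the start. The windows of Fzd9 (chr5:135250998-135251297, minus strand) and Tcf7l1 (chr6:72788996-72789295, minus strand) hold no match to these letters. The sequences are given 5′ to 3′ on the strand of the gene, and they differ in base composition, with 45% G and C for Sp5, 78% for Fzd9 and 75.3% for Tcf7l1.
Sp5: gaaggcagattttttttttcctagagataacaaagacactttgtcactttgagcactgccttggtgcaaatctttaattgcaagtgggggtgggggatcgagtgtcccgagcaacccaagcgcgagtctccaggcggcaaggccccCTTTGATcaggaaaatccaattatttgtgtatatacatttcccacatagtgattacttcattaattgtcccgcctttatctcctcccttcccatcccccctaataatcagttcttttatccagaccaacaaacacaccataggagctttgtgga
Fzd9: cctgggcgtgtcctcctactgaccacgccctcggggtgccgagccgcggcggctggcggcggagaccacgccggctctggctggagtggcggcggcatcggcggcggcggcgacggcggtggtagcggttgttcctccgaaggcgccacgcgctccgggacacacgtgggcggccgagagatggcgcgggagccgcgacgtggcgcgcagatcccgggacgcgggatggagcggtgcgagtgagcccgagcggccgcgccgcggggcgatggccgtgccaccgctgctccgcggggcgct
Tcf7l1: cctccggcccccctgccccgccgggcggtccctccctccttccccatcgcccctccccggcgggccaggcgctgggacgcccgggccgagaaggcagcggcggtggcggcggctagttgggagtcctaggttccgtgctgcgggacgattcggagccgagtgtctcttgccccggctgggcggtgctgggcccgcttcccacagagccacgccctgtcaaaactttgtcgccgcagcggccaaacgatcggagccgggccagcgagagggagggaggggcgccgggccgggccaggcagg

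**Figure D4:**
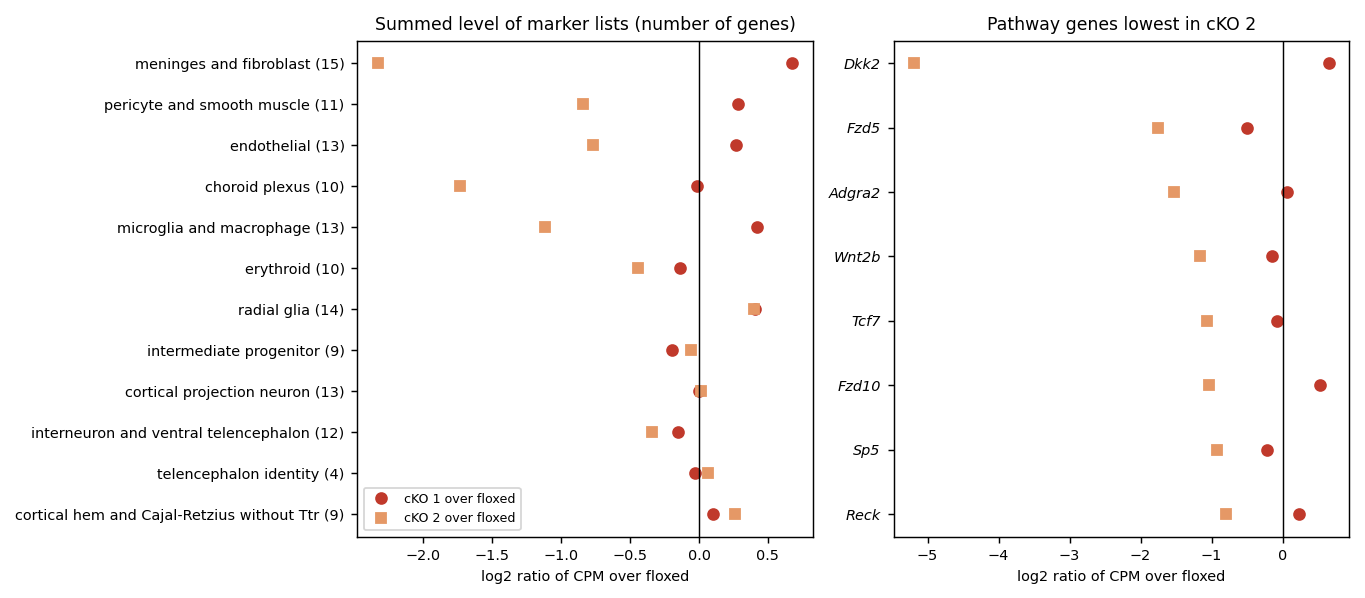
Left, log2 ratio over floxed of the summed CPM of each marker list for cKO 1 (circles) and cKO 2 (squares), with the number of genes in brackets; right, the same ratio for the 8 pathway genes with the lowest values in cKO 2, chosen after their values were seen. Meningeal and vascular marker sums lie above floxed in cKO 1 and below it in cKO 2. Dkk2, Fzd10, Adgra2 and Reck have the same order, with Adgra2 and Reck within counting error of floxed in cKO 1. Fzd5, Wnt2b, Tcf7 and Sp5 lie below floxed in both cKO libraries.

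Another 107 genes of the wider pathway were listed, of which 94 stood in both tables and 90 were tested. The edgeR test called 0 of them, with 2 higher (2.22%) and 2 lower (2.22%) at an unadjusted p under 0.05, beside 0.646% and 0.652% of all genes tested. Their median log2 ratios were 0.02 in cKO 1 and -0.05 in cKO 2. Both cKO libraries lay above floxed for 18 of the 90 (20%), beside 27.7% of all genes tested, and below it for 28 (31.1%), beside 31.8%. The smallest unadjusted p belonged to Dvl3, a Dishevelled gene that relays the signal from Frizzled, with 70.1 and 64.2 CPM in cKO 1 and cKO 2, against 99.8 CPM in floxed (fitted log2 fold -0.55, SE 0.13). Dvl3 was below floxed in both, while its relatives Dvl1 (129 and 157 CPM, against 146 CPM) and Dvl2 (77.4 and 86.2 CPM, against 81.2 CPM) had floxed between the cKO libraries.

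Sfrp4, another secreted Frizzled-related antagonist, had 80 and 70 counts in cKO 1 and cKO 2 (4.10 and 3.77 CPM), against 24 counts in floxed (1.35 CPM). Both cKO libraries were higher, with a fitted log2 fold of 1.56 (SE 0.42), and the authors' deposited tables marked it significant in both. Lrp4, which binds sclerostin and agrin, had 45.4 and 37.0 CPM, against 29.2 CPM (fitted log2 fold 0.51, SE 0.18). The planar polarity genes Ankrd6 (34.7 and 33.4 CPM, against 48.1 CPM) and Celsr1 (114 and 122 CPM, against 149 CPM) were lower in both cKO libraries. Of the Groucho corepressors, Tle3 was lower in both (182 and 176 CPM, against 224 CPM) and Tle4, which also marks deep-layer neurons, higher (72.9 and 70.3 CPM, against 59.5 CPM). Ccdc88c, a Dishevelled-binding protein, had 105 and 89.6 CPM, against 121 CPM. These were the 8 genes with the smallest unadjusted p, and none passed the adjusted threshold (edgeR adjusted p = 0.99997 for each).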

How the data were processed

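Libraries were made with an Illumina TruSeq RNA kit from 2 µg of total RNA, per the labels' protocols. This kit does not mark strand, so overlapping antisense reads cannot be separated. Among the pathway genes more than 10% of exon bases overlap another gene for Notum (29.4%), Fzd5 (17.8%), Sfrp2 (16.1%), Ctnnb1 (14.6%), Lef1 (13.8%) and Rspo3 (13.1%), whose levels are less certain. Bowtie2 2.2.3, TopHat2 2.0.12, HTSeq 0.6.0 and mm9 are named in the submitters' processing notes. The gene positions in the tables were those of GRCm38: 17844 of 19968 were identical in GENCODE M21. The authors deposited raw counts per gene, CPM (a count over a library total, with 0 replaced by 0.5), the ratio (fold) of the CPM values, its log2, and p-values of 1 library against 1 library by a test that no source used here names. The library totals behind the deposited CPM were recovered from them and used for scaling. The tables list 21102 and 20633 genes, and the 19968 in both were used.

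The counts were tested with edgeR 4.0.16 (R 4.3.3) by the quasi-likelihood test, cKO against floxed, after the default filter (minimum count 10, 16725 genes left) and TMM scaling. This leaves 1 residual degree of freedom. Floxed, a lone library, was assumed to vary like the cKO libraries, and the common biological coefficient of variation was 0.218. The test called fewer genes at an unadjusted p under 0.05 (217) than the 836 that uniform p-values would give. The script was tested on simulated data. Alternatives used RLE scaling, library totals, no filter, DESeq2 1.42.0 and limma-voom (limma 3.58.1). Ratios of counts carry exact (Clopper-Pearson) 95% intervals. The reads have no molecular identifiers, so intervals cover counting error only. A count of 0 allows up to 3 counts, or 0.154, 0.161 and 0.168 CPM in cKO 1, cKO 2 and floxed. Levels of different genes were compared per kilobase of merged exons (GENCODE M21).

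The pathway genes and all lists were chosen with earlier results of these data known. Fitted statistics are printed for Kremen1 and, in each role, for the gene with the highest level per kilobase and the gene with the largest fitted fold; of the wider pathway the 8 genes with the smallest unadjusted p are named. The hem and Cajal-Retzius marker list as written holds Ttr, which dominates its sum (1281, 640 and 1284 CPM in cKO 1, cKO 2 and floxed).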

Additional observations from a re-analysis of the deposited data

How the results depend on the processing

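With 1 floxed library and 1 residual degree of freedom, leaving out a cKO library leaves no test. DESeq2 called 5 genes and edgeR with library totals 1, in place of 0, none of them in the pathway. Kremen1 kept a log2 fold of 1.06 to 1.14 when a cKO library was left out, and its adjusted p was 0.249 with DESeq2, within 0.249 to 0.99997 over the alternatives. With 99% intervals 10 pathway genes in place of 15 were above floxed in cKO 1 and 2 in place of 4 below. In cKO 2 they were 6 in place of 7 above and 15 in place of 19 below. The fitted fold turned sign for Axin1 with library totals (-0.012) and for Dkk1 with library totals (-0.018) and limma-voom (-0.060). With only 1 cKO library, 12 to 26 pathway genes lay above floxed and 19 to 33 below, and of the wider pathway 34 to 46 and 44 to 56; the low end of the pathway's genes above floxed came without cKO 1 and the high end without cKO 2. With longest transcripts in place of merged exons, a setting chosen after seeing the data like the counts with 1 cKO library, the mean cKO share of Wnt7b was 76.8% in place of 70.3% and that of Wnt7a 13.8% in place of 18.1%. No paired analysis was possible because floxed has 1 library. At these depths differences of genes under about 10 counts, such as Kremen2, Dkk1 and Lgr5, were not detectable.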

Other observations

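Of the wider pathway list, 3 genes stood in 1 deposited table only and entered no comparison. Wnt2, a ligand, had 6 counts in cKO 1 and 0 counts in floxed, and Ascl2, a reported target, had 12 counts in cKO 1 and 0 counts in floxed. Dkk4, a Dickkopf antagonist, had 2 counts in cKO 2 and 1 count in floxed.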
